A study of Rattus norvegicus and Homo sapiens with 12 samples.

Results

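The gene set described here holds FOS, FOSB, FOSL1, FOSL2, JUN, JUNB, JUND, ATF3, EGR1 and IER3, the AP-1 subunits and early response genes of DU145, a human prostate cancer (PCa) cell line. The members were taken by symbol, matched by Ensembl identifier, and make up 10 of the 60107 genes listed in the human count table. Of these, 9 had enough counts to be tested among 14316 tested genes, and FOSB did not. F0 DU145 are the parental cells, and F2 DU145 are the cells recovered after several exposures to conditioned media (CM) from human mesenchymal stem cells (MSCs). Each exposure lasted 72 h, and their number is 2 in the sample labels but 3 in the series text. Both populations were grown in DMEM with 10% FBS. RNA QuantSeq was run on 3 samples of each population. Whether the 3 F2 samples came from separate selections is not given in the sources used here, so the errors and p-values describe samples. The comparison of F2 with F0 asks how the expression of these genes differs in MSC-selected PCa cells.

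AP-1 is a dimer of basic leucine zipper (bZIP) proteins. JUN proteins pair with each other or with FOS proteins, FOS proteins need a JUN partner to bind DNA, and the pairs recognize short sites in promoters and enhancers of genes for proliferation, survival, invasion and inflammation. Many of these genes are immediate-early genes, whose transcripts appear within minutes of a mitogen or a stress, without new protein synthesis, and decay quickly, whereas FOSL1 and FOSL2 tend to last longer and often prevail in invasive carcinoma cells. ATF3 is a stress-induced bZIP protein, EGR1 is a zinc finger factor induced through serum response elements, and IER3 is a stress-inducible regulator of cell survival that is not known as a DNA-binding transcription factor, so the name early response factor fits it only in part.

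The bZIP members share sequence, which follows from their choice as AP-1 subunits and relatives. A 9-codon signature in the basic region, through which a bZIP protein contacts DNA, was found in 8 of 10 members and not in EGR1 or IER3. The search pattern was written for this region and was run on the members only, so no share over all genes is given. The 27 bases of each signature are shown because they are the sequence that the bZIP members share, with the codons of the conserved residues in capitals, read 5′ to 3′ on the coding strand of GENCODE 29 transcripts (GRCh38).
FOS, chr14:75280605-75280631, plus strand: AATaagatgGCTGCAgccaaaTGCCGC
FOSB, chr19:45471239-45471265, plus strand: AATaaactaGCAGCAgctaaaTGCAGG
FOSL1, chr11:65894050-65894076, minus strand: AACaagctgGCTGCGgccaagTGCAGG
FOSL2, chr2:28408804-28408830, plus strand: AACaagctgGCTGCAgccaagTGCCGG
JUN, chr1:58782261-58782287, minus strand: AACcgcatcGCTGCCtccaagTGCCGA
JUNB, chr19:12792603-12792629, plus strand: AACcggctgGCGGCCaccaagTGCCGG
JUND, chr19:18280627-18280653, minus strand: AACcgcatcGCCGCCtccaagTGCCGC
ATF3, chr1:212618172-212618198, plus strand: AATaagattGCAGCTgcaaagTGCCGA
FOSL1 and FOSL2 had 25 of 27 bases in common, as did JUN and JUND, while JUNB had 21 in common with JUN and 21 with JUND. Identity did not follow the families throughout, since JUNB had 22 bases in common with FOSL2 and 21 with FOSL1. FOS had the most in common with FOSL2 (23), then 21 with ATF3, 21 with FOSL1 and 20 with FOSB. The counts are of bases and not of encoded residues. The least alike pairs were FOSB with JUN and FOSB with JUND, each with 14 identical bases. The signatures lie in the coding sequence, whereas QuantSeq reads start near the 3′ end.

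Values are given as CPM, counts scaled by TMM to a common total per library. Gene counts per library lay between 15879480 and 16479239. Over all tested genes, 2599 (18.2%) passed an adjusted p of 0.05 (edgeR quasi-likelihood test), 1358 (9.49%) higher and 1241 (8.67%) lower in F2. Scaling by library size alone gave 832 higher and 2805 lower, since it moved the median of all genes by -0.0897 on the log2 scale. Replicate libraries differed by more than sampling noise, so none was counted as a duplicate.

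Of the 9 tested members, 5 passed the threshold, 3 higher and 2 lower in F2, where 18.2% of all tested genes passed. JUN, FOSL1 and IER3 rose, JUND and EGR1 fell, and FOS, FOSL2, JUNB and ATF3 did not pass. With library size alone as the scale, FOSL2 and JUNB passed too, which gave 3 higher and 4 lower. The F2 and F0 libraries did not overlap for these 5 members, as for 34% of all tested genes. No member reached a 2-fold change, a size that 239 genes (1.67%) reached past the threshold. The median log2 fold change of the 9 members was 0.035, against -0.0025 for all tested genes.

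**Figure D1:**
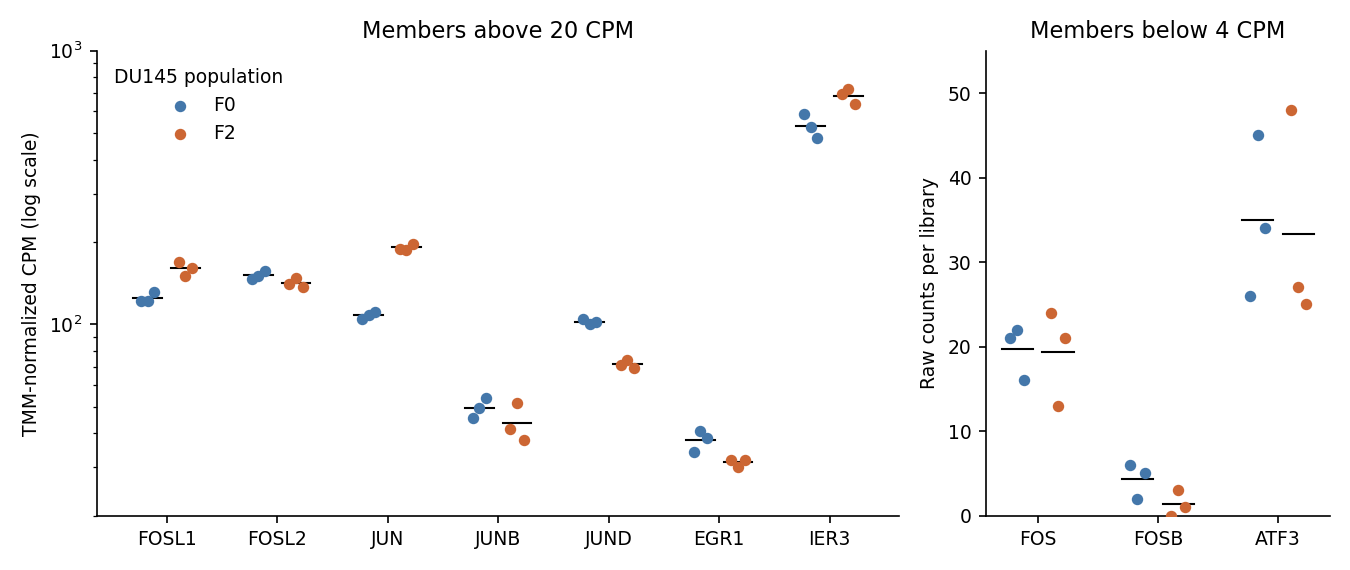
TMM-normalized CPM (log axis) of the 7 members above 20 CPM and raw counts of the 3 members below 4 CPM, with 1 point per library (3 F0 in blue, 3 F2 in orange) and a bar at the mean. JUN, FOSL1 and IER3 sit higher in every F2 library, JUND and EGR1 lower, and the other members overlap.

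In F0, the mean level ran from IER3 at 531 CPM through FOSL2 (151), FOSL1 (125), JUN (108), JUND (102), JUNB (49.5) and EGR1 (37.8) down to ATF3 (2.09), FOS (1.17) and FOSB (0.257). QuantSeq takes 1 tag per transcript, so these levels depend little on transcript length. JUN and JUND were the one pair of neighbours in this order whose F0 libraries overlapped. In F2, JUN moved up to the place below IER3, ahead of FOSL1 and FOSL2, and no pair of neighbours overlapped. FOS, which gave the family its name, had few counts in both populations.

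JUN and JUND had the largest rise and the largest fall among the 9 tested members. JUN, a subunit that drives cell cycle entry, had 105, 108 and 111 CPM in F0 and 189, 187 and 197 CPM in F2. All F2 libraries were above all F0 libraries, and the populations differed by far more than the replicates, with means of 108 ± 3.12 and 191 ± 5.07 CPM (SD, n = 3 each). The log2 fold change was 0.82 (SE 0.048, 95% CI 0.72 to 0.92, edgeR adjusted p = 3.18e-10), or 1.77-fold.

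JUND, the family member with the most constant expression in many tissues and a brake on proliferation in several cell types, moved the other way. Its libraries had 105, 100 and 102 CPM in F0 and 71.0, 74.0 and 69.4 CPM in F2. Every F2 library was below every F0 library. JUND fell by 0.52 on the log2 scale (SE 0.052, 95% CI -0.63 to -0.41, edgeR adjusted p = 6.64e-07), from 102 ± 2.53 to 71.5 ± 2.37 CPM (SD, n = 3 each).

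JUNB, which can oppose JUN at some target genes, had 45.3, 49.5 and 53.7 CPM in F0 and 41.4, 51.5 and 37.8 CPM in F2. The populations overlapped, because F2 replicate 2 lay within the F0 range. Its log2 fold change of -0.18 (SE 0.091, 95% CI -0.38 to 0.0058) did not pass the edgeR test (adjusted p = 0.177), but passed without F2 replicate 2 (log2 fold change -0.32, adjusted p = 0.00589). The 3′ UTR of JUNB overlaps HOOK2 on the opposite strand, which rose by 0.37 on the log2 scale (edgeR adjusted p = 0.0200). How strand was handled in counting is not given in the sources used here, so reads of JUNB and HOOK2 may not be separable.

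Within the JUN family the makeup of the counts shifted, a measure that does not depend on how libraries are scaled. JUN made up 41.0, 42.1 and 41.6% of the JUN, JUNB and JUND counts in F0 and 62.7, 59.9 and 64.7% in F2. JUND went from 39.4% ± 1.54 to 23.3% ± 0.457 and JUNB from 19.0% ± 1.18 to 14.2% ± 2.06 (SD, n = 3 each). JUN and JUND were thus nearly even in F0, with a mean log2 ratio of JUN to JUND of 0.077, and JUN exceeded JUND in F2, at 1.42. The log2 ratio of JUN to JUNB went from 1.13 to 2.14. None of these measures overlapped between the populations. With 3 against 3 libraries the exact two-sided permutation test cannot go below p = 0.1, the value each of these measures had, and 0.136 after adjustment over the 15 shares, ratios and sums computed for the JUN, FOS and EGR1 genes.

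**Figure D2:**
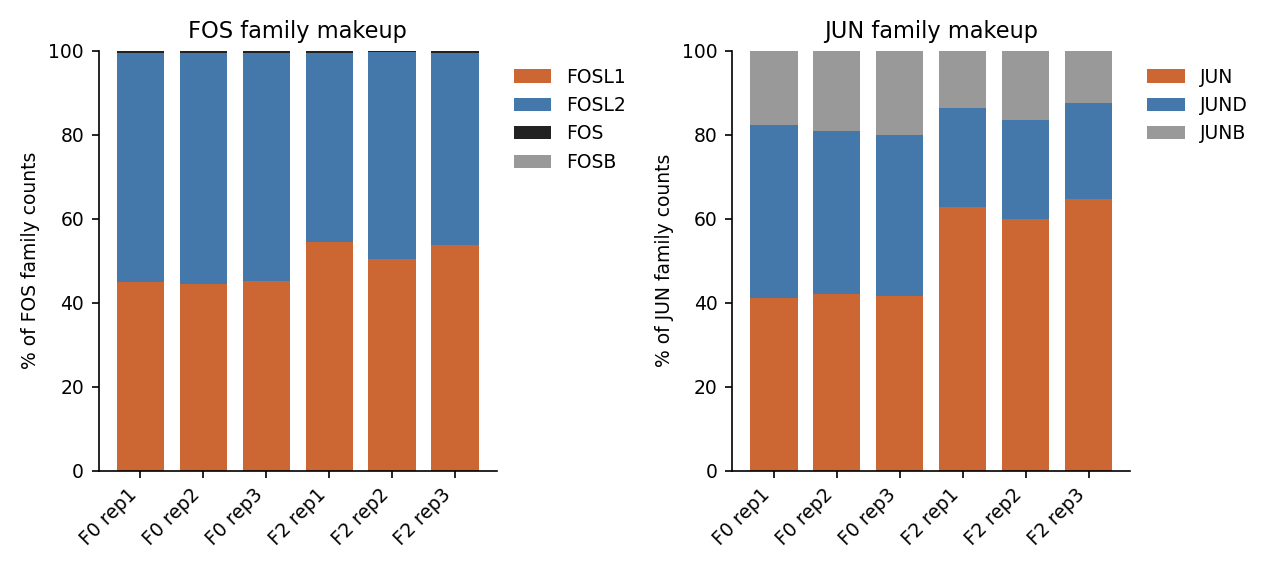
Share of each gene (%) in the summed counts of the FOS family (left) and of the JUN family (right), 1 stacked bar per library. JUN takes 41.0 to 42.1% of the JUN family in F0 and 59.9 to 64.7% in F2, and FOSL1 takes 44.5 to 45.3% of the FOS family in F0 and 50.4 to 54.4% in F2.

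In the FOS family, FOSL1 (FRA-1), a subunit linked to invasion in many carcinoma cells, rose. Its libraries had 121, 121 and 131 CPM in F0 and 169, 151 and 161 CPM in F2. All F2 libraries were above F0, and the means were 125 ± 5.59 and 160 ± 9.40 CPM (SD, n = 3 each). The log2 fold change was 0.36 (SE 0.053, 95% CI 0.25 to 0.47, edgeR adjusted p = 7.19e-05), or 28.5% more.

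FOSL2 (FRA-2), its nearest relative in the signature shown above, had 147, 150 and 157 CPM in F0 and 140, 147 and 137 CPM in F2. The populations overlapped narrowly at 147 CPM. Its log2 fold change of -0.097 (SE 0.049, 95% CI -0.20 to 0.0048) did not pass the edgeR test (adjusted p = 0.185), but passed when libraries were scaled by their size alone (log2 fold change -0.19, adjusted p = 0.00903). FOSL1 went from 44.9% ± 0.377 to 52.9% ± 2.16 of the FOS family counts and FOSL2 from 54.6% ± 0.344 to 46.7% ± 2.24 (SD, n = 3 each). FOSL2 counts exceeded FOSL1 counts in all F0 libraries and FOSL1 counts exceeded FOSL2 counts in all F2 libraries. The margin was narrow in F2 replicate 2, with a log2 ratio of FOSL1 to FOSL2 of 0.033. The mean log2 ratios were -0.28 in F0 and 0.18 in F2 (exact two-sided permutation p = 0.1, adjusted 0.136).

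FOS and FOSB, the subunits induced most rapidly by growth factors, were scarce. FOS had 21, 22 and 16 counts in F0 and 24, 13 and 21 counts in F2. The populations overlapped, and the log2 fold change of 0.081 had a wide 95% CI of -0.59 to 0.76 (SE 0.32, edgeR adjusted p = 0.898), so a change within that interval was not detectable at this depth. FOSB had 6, 2 and 5 counts in F0 and 0, 3 and 1 in F2, against a floor of 3 counts per library, and no fold is given. The 3′ UTR of FOSB overlaps ERCC1 on the opposite strand, which rose by 0.25 on the log2 scale (edgeR adjusted p = 0.00638).

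Together, the FOS and JUN families had similar summed levels. The 4 FOS genes summed to 277 ± 10.7 CPM in F0 and 303 ± 6.95 CPM in F2, and the 3 JUN genes to 260 ± 6.15 and 306 ± 5.87 CPM (SD, n = 3 each). Both sums were higher in all F2 libraries than in all F0 libraries (exact two-sided permutation p = 0.1 for each, adjusted 0.136). Unlike the shares, the sums depend on how libraries are scaled, and they were computed with TMM only. The FOS sums came closest at 290 CPM in F0 replicate 3 and 299 CPM in F2 replicate 2. The TMM factors of these 2 libraries were 1.03 and 0.971, and without them their order is reversed. The separation of the FOS sums therefore does not hold with library size alone as the scale. The JUN sum was below the FOS sum in every F0 library and above it in 2 of 3 F2 libraries, with mean log2 ratios of -0.094 and 0.014.

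ATF3, which pairs with JUN proteins and rises under endoplasmic reticulum stress, DNA damage and amino acid lack, had 26, 45 and 34 counts in F0 and 48, 27 and 25 counts in F2. The populations overlapped, with 1.54 to 2.73 CPM in F0 and 1.59 to 3.07 CPM in F2. Its log2 fold change was 0.035 (SE 0.29, 95% CI -0.57 to 0.64, edgeR adjusted p = 0.953).

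EGR1, which is induced by the same ERK and serum response factor input as FOS, had 34.1, 40.8 and 38.3 CPM in F0 and 32.0, 30.0 and 32.0 CPM in F2. The F2 libraries were all below F0, by a narrow margin at F0 replicate 1. EGR1 fell by 0.27 on the log2 scale (SE 0.077, 95% CI -0.43 to -0.11, edgeR adjusted p = 0.0191), from 37.8 ± 3.38 to 31.3 ± 1.17 CPM (SD, n = 3 each). The call was lost in 4 of the 6 fits that leave out 1 library, with adjusted p = 0.138 without F0 replicate 2, 0.0565 without F0 replicate 3, 0.0512 without F2 replicate 1 and 0.0539 without F2 replicate 2. The log2 ratio of EGR1 to FOS went from 5.02 to 4.70, with overlap (exact two-sided permutation p = 0.4, adjusted 0.429). Genes near EGR1 were lower in F2 too, with a median log2 fold change of -0.18 over the 20 tested genes within 1 Mb. The median of the 631 tested genes of chromosome 5 was -0.073. The part of this shift in the fall of EGR1 was not tested.

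IER3, the most abundant member, had 587, 525 and 482 CPM in F0 and 695, 722 and 637 CPM in F2. All F2 libraries were above F0, although the F0 libraries spread by 9.95% of their mean (CV), more than the median CV of 4.43% of the 6604 tested genes between 20 and 1000 CPM. IER3 rose by 0.37 on the log2 scale (SE 0.060, 95% CI 0.24 to 0.49, edgeR adjusted p = 2.20e-04), from 531 ± 52.8 to 685 ± 43.3 CPM (SD, n = 3 each). IER3 overlaps the antisense gene IER3-AS1, whose reads may not be separable from its own.

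**Figure D3:**
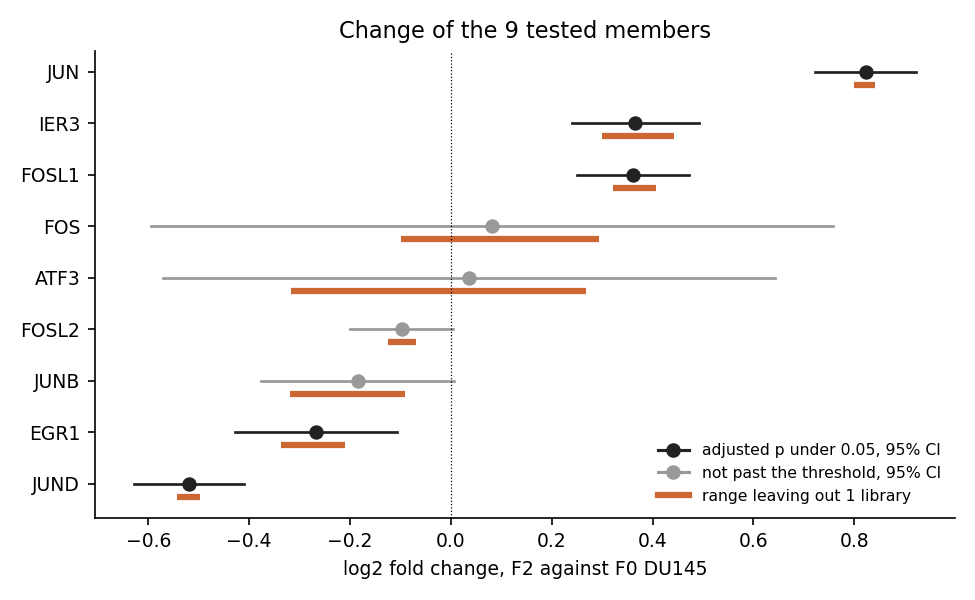
Log2 fold change of F2 against F0 DU145 for the 9 tested members (points) with 95% CI (thin lines, black where the adjusted p is under 0.05), and the range of the fold change when 1 library is left out (orange bars). JUN (0.82) and JUND (-0.52) lie farthest from 0 on either side, and the intervals of FOS and ATF3 are the widest.

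Positions are those of GENCODE 29 on GRCh38. FOS lies at chr14:75278774-75282230, FOSB at chr19:45467995-45475179, JUNB at chr19:12791496-12793315 and JUND at chr19:18279760-18281622. JUN lies at chr1:58780788-58784327, ATF3 at chr1:212565334-212620777, FOSL1 at chr11:65892049-65900573 and FOSL2 at chr2:28392448-28417312. EGR1 lies at chr5:138465490-138469315 and IER3 at chr6:30743199-30744554. JUN, JUNB and JUND each have 1 exon, a structure of 2.2% of 12031 tested protein-coding genes, whose median is 9 exons. The members with 1 exon are thus those of the JUN family, in which JUN rose and JUND fell.

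The decay of immediate-early transcripts is tied to AU-rich elements in the 3′ UTR, of which ATTTA is the core pentamer and TTATTTATT the longer nonamer. On the transcript strand ATTTA was found in the 3′ UTR of all 10 members, as in 68.6% of 11872 tested genes with a 3′ UTR, with the most copies in FOSL2 (9), IER3 (6) and FOS (5) and 1 copy in each of FOSL1, JUND and EGR1. The median over the tested genes was 2 copies. Copies were not corrected for the length of the 3′ UTR, which was 4864 bases in FOSL2, 737 in IER3 and 806 in FOS. The median length over the tested genes was 1035 bases. In the last 300 bases FOSL2 had 0 copies, IER3 1 and FOS 5. TTATTTATT, which contains the pentamer, was found in 2 members, FOS and FOSL2, and in 8.17% of the tested genes. The stretches around it are shown because they mark the FOS family members with the longer element, with the nonamer in capitals.
FOS, chr14:75282062-75282086, plus strand: tttttaatTTATTTATTaagatgga
FOSL2, chr2:28416357-28416381, plus strand: ttattttaTTATTTATTttaaatgt
Of the members with 1 copy of the pentamer, FOSL1 rose while JUND and EGR1 fell, and JUN with 3 copies and IER3 with 6 rose. The part of these elements in the changes was not tested. A match of letters is a description and not a measured element.

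Other genes of the pathway were counted in lists of related genes. Of 36 listed kinases and factors upstream of AP-1, 35 were tested, 6 rose and 1 fell, or 20.0% past the threshold against 18.2% of all tested genes. Those that rose most were MAPK13, a p38 kinase (log2 fold change 0.67), BRAF, a kinase above MEK (0.45), RPS6KA5, a kinase of histone H3 and CREB (0.33), ELK3, a partner of serum response factor (0.33), and MAP2K1, which encodes MEK1 (0.30). MAP2K2, which encodes MEK2, fell by 0.18. Scaled by library size alone, the list held 6 that rose and 5 that fell.

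Of 31 listed bZIP partners and relatives, 26 were tested, 2 rose and 3 fell (19.2% past the threshold, against 18.2% of all tested genes). CREB5 rose by 0.54 and MAFG by 0.22 on the log2 scale. CEBPD fell by 0.64, CEBPB by 0.47 and NFE2L2, the master factor of the antioxidant response, by 0.33. With library size alone as the scale, 1 rose and 8 fell.

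Of 60 other early response genes, 53 were tested, 17 rose and 11 fell. The share past the threshold was 52.8%, against 18.2% of all tested genes, and the median log2 fold change was 0.089. The list was chosen with earlier results of these data known, so this share is not independent evidence. TNFAIP3, an inhibitor of NF-κB signalling (0.82), DUSP6, a phosphatase of ERK (0.79), the chemokine CXCL1 (0.73), PPP1R15A, a stress-induced phosphatase subunit (0.60), and the kinase PLK3 (0.54) rose most. The orphan nuclear receptors NR4A3, NR4A2 and NR4A1 fell, NR4A3 by 1.88, NR4A2 by 1.07 and NR4A1 from 15.1 ± 1.69 to 7.53 ± 0.933 CPM (SD, n = 3 each). ID2, an inhibitor of differentiation, and TOB1, an antiproliferative factor, fell by 0.93 and 0.75. EGR2, EGR3 and EGR4 had 0 to 6 counts per library and were not tested. The median was -0.00075 with library size alone as the scale.

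Of 49 genes listed as described AP-1 targets, 33 were tested, 22 rose and 5 fell. The share past the threshold was 81.8%, against 18.2% of all tested genes, and the median log2 fold change was 0.37. MMP1 and IL24 were known to have risen in these samples when the list was drawn up, and without them 20 rose and 5 fell of 31. The collagenase MMP1 went from 3.78 ± 0.517 to 21.0 ± 0.881 CPM (SD, n = 3 each, log2 fold change 2.47) and the cytokine IL24 from 8.78 ± 0.430 to 45.4 ± 2.13 CPM (2.37). MMP14, a membrane-bound metalloprotease (1.14), HMGA2, a chromatin factor (1.04), and F3, tissue factor (0.88), followed. GJA1, a gap junction protein, fell by 1.28, TFPI2 by 0.65, the EGFR ligands AREG and EREG by 0.43 and 0.31, and EZR by 0.19. The list was chosen with earlier results of these samples known, so its share past the threshold is not independent evidence of AP-1 activity.

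**Figure D4:**
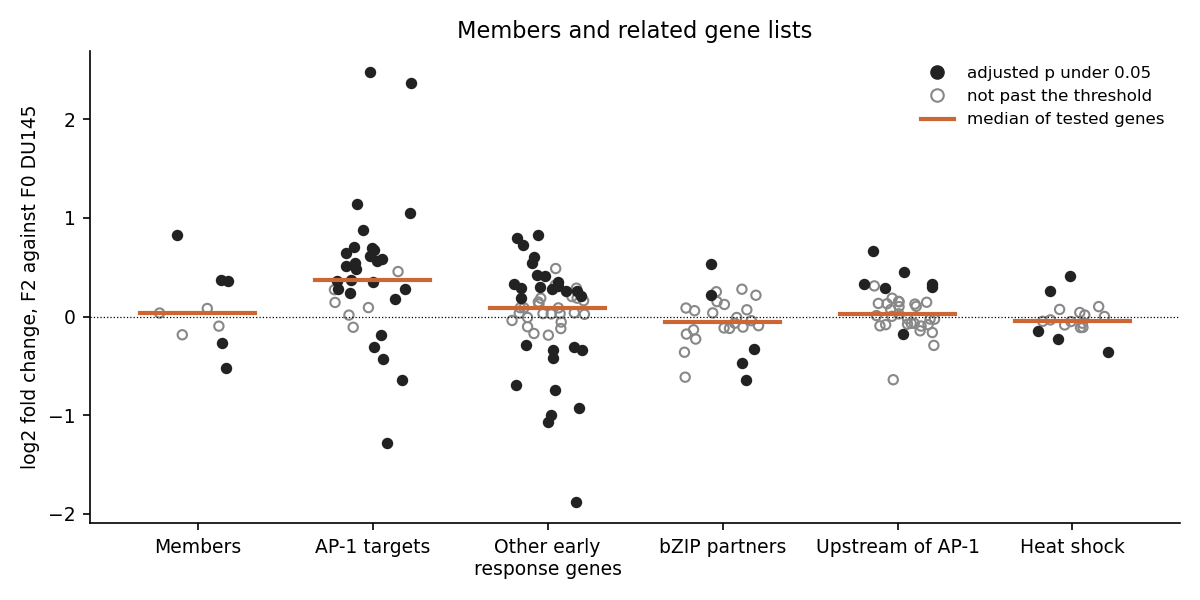
Log2 fold change of F2 against F0 DU145 for every tested gene of the members and of 5 lists (1 point per gene, filled where the adjusted p is under 0.05), with an orange bar at the median of each list. The median is 0.035 for the members, 0.027 for the upstream genes and 0.37 for the AP-1 targets, and the AP-1 targets span from -1.28 for GJA1 to 2.47 for MMP1.

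Genes of the heat shock response, listed because handling of cells can raise early response genes, had 17 tested, 2 that rose and 3 that fell (29.4% past the threshold, against 18.2% of all tested genes). The 5 that passed became 3 without F0 replicate 2 or F2 replicate 3 and 8 without F2 replicate 2. BAG3 rose by 0.41 and HSPA8 by 0.26, while DNAJB4, DNAJB1 and HSPA5 fell by 0.35, 0.23 and 0.15. For HSPA8 the F0 and F2 libraries overlapped. With library size alone as the scale, 1 heat shock gene rose and 7 fell. Of 8 epithelial markers 7 were tested, and KRT5 had 0 counts. KRT19, KRT8, EPCAM and KRT18 rose, KRT8 with overlap of the F0 and F2 libraries, and CDH1 (log2 fold change -1.27), CDH3 and KRT7 fell. On the library size scale 1 of these markers rose and 3 fell. Of 7 markers of luminal prostate cells, 4 had 0 counts in all libraries, among them KLK2, FOLH1 and ACP3. The 1 tested luminal marker did not pass, except as lower in F2 with library size alone as the scale. The luminal list summed to 49.2 to 52.8 CPM in F0 and 40.8 to 51.4 CPM in F2. Of 20 MSC markers, THY1, CXCL12, LUM, POSTN, SPARC, VCAM1 and FAP had 0 counts in all libraries, and 6 were tested. NT5E and NES rose and FN1 and TAGLN fell, and the summed level of the list was 202 to 216 CPM in F0 and 257 to 276 CPM in F2, mostly NT5E. The part of these markers in the changes of the members was not tested.

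Over the 6 libraries, the genes whose log2 CPM followed FOSL1 most closely among 8649 tested genes of at least 10 CPM were RETSAT (Pearson r = 0.996), ANKRD1 (0.995) and PICALM (0.9945). Those closest to EGR1 were URB1-AS1 (0.996), UBAC2 (0.995) and RBM14 (0.994). These correlations rest on 6 libraries in 2 populations and describe these libraries only.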

How the data were processed

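RNA of DU145 was profiled by RNA QuantSeq in 3 F0 and 3 F2 samples. The authors deposited raw counts per gene without normalization, and the submitters' processing notes name STAR 2.5.2a, HTSeq 0.6.0 and GRCh38. The annotation release and the strand setting are not given in the sources used here. The rat cells of the series were not analysed here.

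Identifiers were matched to symbols (56104 of 60107). Reads outside genes (9.60 to 10.0% of the uniquely placed reads in F0, 11.3 to 11.9% in F2) and ambiguous reads stayed out of library sizes and tests, and the part of this difference in the results was not tested. The filter was filterByExpr with a minimum count of 10 and a minimum total of 15, and normalization was by TMM. F2 was compared with F0 in edgeR 4.0.16 (glmQLFit and glmQLFTest, R 4.3.3, limma 3.58.1), with Benjamini-Hochberg adjustment over 14316 genes. The threshold was an adjusted p under 0.05. SE is the log2 fold change divided by the root of F. PCR duplicates could not be removed, and intervals cover the spread between samples.

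Alternatives were median-ratio size factors, library size alone, no filter, at least 10 counts in every library, DESeq2 1.42.0, a replicate block, no mitochondrially encoded genes and each library left out in turn. The method was tested on simulated data. Replicate numbers were not used to pair the samples in the main fit. The members and gene lists were chosen with earlier results of these data known. Named genes are all members, up to 5 with the largest rise and fall past the threshold in each list, and the 3 genes most correlated with FOSL1 and with EGR1. Promoters were not analysed here, and some listed marker genes are not reported here.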

Additional observations from a re-analysis of the deposited data

How the results depend on the processing

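JUN, FOSL1, JUND and IER3 kept their direction and their side of the threshold under all 13 alternatives. EGR1 lost its call in 4 of the fits that leave out 1 library (log2 fold change -0.34 to -0.21). FOS turned to -0.0079 with library size alone, -0.052 without F0 replicate 3 and -0.098 without F2 replicate 1 (range -0.098 to 0.29). ATF3 turned to -0.054 with library size alone, -0.15 without F0 replicate 1 and -0.32 without F2 replicate 1 (range -0.32 to 0.27). JUNB passed with library size alone (-0.27, adjusted p = 0.0362 by edgeR) and without F2 replicate 2.

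With library size alone, 832 genes were higher and 2805 lower, and the genes past the threshold were 9 bZIP partners, 11 upstream genes, 8 heat shock genes and 4 epithelial markers. Leaving out 1 library gave 1670 to 2621 genes in all, lowest without F0 replicate 2, with 909 to 1377 higher and 761 to 1244 lower. It gave 4 to 5 members, 3 to 8 heat shock genes and 1 to 4 MSC markers. Without F0 replicate 2 or F2 replicate 3, 3 heat shock genes passed, and 8 without F2 replicate 2. For MSC markers, 2 passed without F0 replicate 3 or F2 replicate 1, and 1 without F2 replicate 3. The cause was not tested. Where an arm had 2 samples, the spread was shared over all 5.

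The replicate numbers gave correlations of deviations of 0.056, -0.017 and 0.059. F0 replicates 1 and 3 were closest to the F2 library of their own number, and F0 replicate 2 to F2 replicate 3. With 3 libraries per population, these low values cannot exclude that samples of 1 number share more than the number. With the replicate block 2867 genes passed, and 5 members. Low counts limit FOS, FOSB and ATF3.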
